A study of Mus musculus with 30 samples.

Results

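The genes described here encode the nuclear-encoded subunits of the mitochondrial respiratory chain and of ATP synthase. They were chosen by a rule on names, with earlier results of these data known. The rule took every mouse symbol beginning with Nduf followed by a, b, c, s or v and a digit, and the symbols Sdha to Sdhd. It also took every symbol beginning with Uqcr, with Cox4 to Cox8 or with Atp5, and 6 pseudogene rows were left out. This gave 88 of the 46078 genes in the count table, of which 40 belong to complex I, 4 to complex II, 8 to complex III, 19 to complex IV and 17 to complex V. Of the 88, 73 reached 10 CPM (fragments scaled to library size) in at least 1 of the libraries compared, the level used throughout to call a gene measured.

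Complexes I and II pass electrons from NADH and succinate to coenzyme Q, complex III passes them on to cytochrome c, and complex IV passes them to oxygen. Complexes I, III and IV pump protons as they do so, and complex V, ATP synthase, lets the protons flow back and makes ATP. All but complex II are built from subunits encoded in both the nucleus and the mitochondrial genome, and several complex IV subunits exist as separate genes used in different tissues, with some forms typical of heart and skeletal muscle fibres.

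RNA came from C2C12, a mouse myoblast line that divides in rich medium and fuses into myotubes when serum is withdrawn. Cells were growing in 20% serum, stained for 15 minutes with a Hoechst DNA dye and sorted by DNA content into 3 groups, G1, S and G2/M, with no other treatment. Each phase has 2 columns of counts of 16109055 to 18103769 fragments, and the 24 ChIP-seq samples of the series are not analysed here. The labels give the columns replicate numbers but do not say whether separate cultures were used. Over the respiratory chain genes they differed by no more than counting noise, with chi-square over its degrees of freedom of 0.989, 1.04 and 0.739 in phase order. Over all genes these values were 1.00, 1.03 and 1.15, the last being 1.04 without the single gene Gm17082, so the G2/M columns differed slightly more than counting noise. The columns were summed to 1 library per phase. No difference below therefore has a replicate check, the 95% intervals cover counting error only, and PCR copies make even that too narrow. The 3 comparisons share libraries, and only the S columns have a lot mark in their titles, so phase and lot cannot be told apart.

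The labels were checked against marker genes. Myoblast markers were present, with Des at 311, 213 and 285 CPM in G1, S and G2/M, Myf5 at 66.0, 126 and 128 CPM and Cdh15 at 95.7, 92.1 and 85.5 CPM, while Myod1 lay below 10 CPM in all 3. None of 7 myotube markers was measured, and of 12 markers of other cell types only Tubb3 (253, 131 and 254 CPM) and Col1a1 (13.7, 17.5 and 10.4 CPM) were. Some markers below that level were still detected and differed between libraries. In G1, S and G2/M, Acta1 had 216, 5 and 336 fragments, Myog 80, 0 and 42 and Tnnt3 0, 63 and 0. Pdgfra had 0, 221 and 9, Cd68 169, 47 and 0, and the satellite cell marker Pax7 0, 0 and 119. Ccnb1, the mitotic cyclin, stood at 74.3, 242 and 390.3 CPM in the 3 phases. Cdc6, a replication licensing factor, stood at 140.3, 11.2 and 24.2 CPM, and Ccne2, a cyclin of S-phase entry, at 85.6, 16.6 and 20.8 CPM, so both were highest in the G1 library. As genes known for a peak around the entry into S, they were 12.5-fold and 5.15-fold lower in the library labelled S than in that labelled G1, which goes against a plain reading of those labels. The labels were used as given, and every direction between S and G1 rests on them. Levels are relative to the other RNA in a library, so less of an RNA per cell and more of the others cannot be told apart.

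The genes lie on 19 chromosomes, 3 of them on X. RefSeq promoter windows (GRCm38.p6, 250 bases before to 50 after a start) were found for 66 of the 88. They were searched on both strands for exact matches to 5 motifs: GCGCA, any base and GCGC of NRF1 and CCGGAAG of GABPA, both factors known for respiratory genes, AAGATGGCG of YY1, TCAAGGTCA of ESRRA, and the TATA box TATAAA. These motifs do not contain one another. NRF1 motifs were found for 17 of 66 genes (25.8%), against 5.19% of 27025 genes with a promoter in the table and 13.3% of 6941 such genes measured in S or G1. GABPA motifs were found for 16 (24.2%), against 9.93% and 23.1%, YY1 motifs for 7 (10.6%), against 1.64% and 4.39%, ESRRA motifs for 2 (3.03%), against 0.466% and 0.274%, and TATA boxes for 7 (10.6%), against 15.7% and 7.95%. Among the 60 measured respiratory chain genes with a window the shares were 28.3% for NRF1, 26.7% for GABPA, 11.7% for YY1, 3.33% for ESRRA and 8.33% for TATA. Against all measured genes, the GABPA and TATA shares thus lay close and the NRF1 and YY1 shares higher, which was not tested. The median number of CpG per window was 19 for the respiratory chain genes, 22 for measured genes and 7 for all. The 19 is over 71 windows of the 66 genes, measured or not, so it is not of a like set with the 22. A match is a description of these letters and not evidence of binding.

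The 4 genes Uqcr10, Ndufs5, Ndufb6 and Atp5g3, whose printed stretches hold no exon base of the count table, show this range. Their sequences leave out the 50 bases after the start, run 5′ to 3′ on the minus strand and end just before the RefSeq start, or for Ndufs5 before the table's first exon base, with motif matches in capitals. Uqcr10 (chr11:4704345-4704594), the complex III gene with the lowest S over G1 ratio, has no match. Ndufs5 (chr4:123718203-123718436), a complex I gene higher in S than in G1, has 1 NRF1 match. Ndufb6 (chr4:40279422-40279671), a complex I gene at 55.3, 60.6 and 39.8 CPM in G1, S and G2/M, has 1 GABPA match on the reverse strand, and 39.0% of its exon bases overlap Smim27. Atp5g3 (chr2:73911327-73911576), the most abundant of the genes for the c ring of ATP synthase, has 1 ESRRA match on the reverse strand, and its NRF1 match lies outside the stretch printed.
Uqcr10: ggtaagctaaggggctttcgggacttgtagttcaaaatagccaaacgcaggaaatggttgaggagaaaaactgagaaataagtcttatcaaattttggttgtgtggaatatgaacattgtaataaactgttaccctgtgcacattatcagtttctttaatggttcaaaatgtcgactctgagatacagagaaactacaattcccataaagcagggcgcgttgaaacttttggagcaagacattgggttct
Ndufs5: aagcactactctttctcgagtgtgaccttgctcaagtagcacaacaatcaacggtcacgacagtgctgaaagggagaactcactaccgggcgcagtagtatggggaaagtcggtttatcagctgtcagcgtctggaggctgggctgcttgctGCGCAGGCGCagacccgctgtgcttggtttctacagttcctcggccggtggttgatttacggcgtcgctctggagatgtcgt
Ndufb6: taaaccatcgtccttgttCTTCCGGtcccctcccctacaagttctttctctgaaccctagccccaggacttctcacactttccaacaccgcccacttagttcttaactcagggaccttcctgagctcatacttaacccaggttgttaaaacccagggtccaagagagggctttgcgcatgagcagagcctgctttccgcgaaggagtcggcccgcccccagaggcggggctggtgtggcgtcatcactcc
Atp5g3: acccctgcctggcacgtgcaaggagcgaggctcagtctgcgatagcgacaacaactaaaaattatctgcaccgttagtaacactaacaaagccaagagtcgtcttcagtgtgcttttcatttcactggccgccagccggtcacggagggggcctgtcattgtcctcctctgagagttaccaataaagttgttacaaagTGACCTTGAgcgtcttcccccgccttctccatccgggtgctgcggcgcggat

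The respiratory chain genes were at their lowest share of the library in S. Together they took 1.16% of the G1 library, 0.995% of the S library and 1.05% of the G2/M library, or 11762, 9944 and 10361 summed CPM, with log2 ratios of -0.24 for S over G1, 0.06 for G2/M over S and -0.18 for G2/M over G1. Without Atp5b, which alone gave 3372, 2882 and 2895 CPM, these were -0.25, 0.08 and -0.17. Of the 73 measured genes 42 were lowest in S (57.5%, against 30.8% of 9071 measured genes) and 41 were highest in G1 (56.2%, against 36.4%). Only 8 were lowest in G1 (11%, against 36.1%), and none of these belonged to complex IV or V. G2/M was the lowest phase for 23 (31.5%, against 33.1%) and the highest for 20 (27.4%, against 33.3%).

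**Figure D1:**
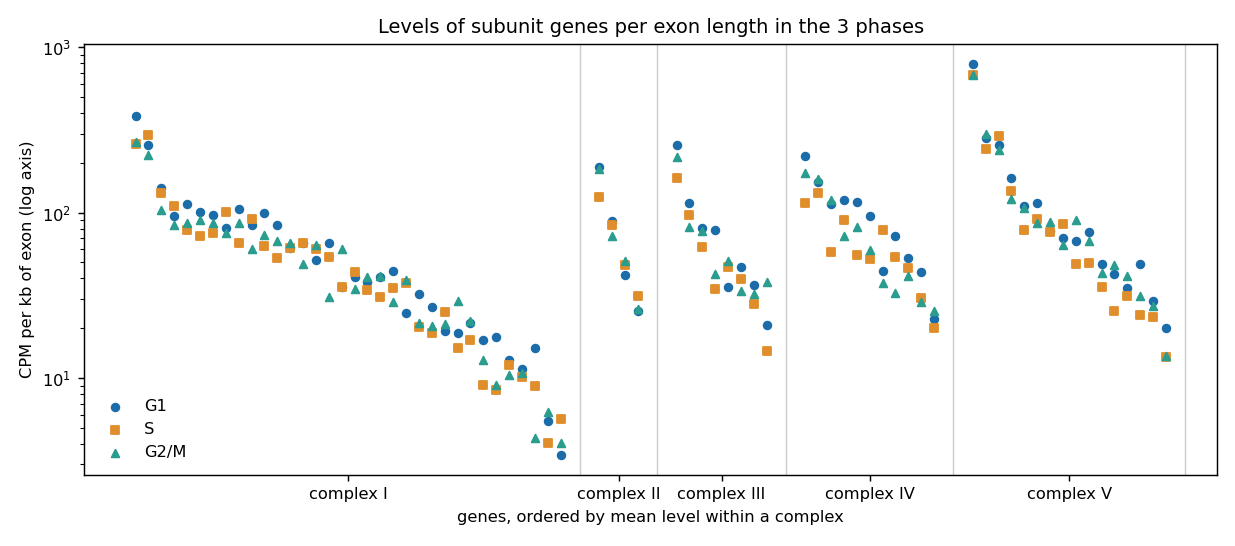
CPM per kb of exon (log axis) of the 73 measured genes in G1 (circles), S (squares) and G2/M (triangles), each 1 library, ordered within a complex by mean level. Levels span 4.37 to 719.8 CPM per kb on average, with Atp5b highest, and for most genes the 3 phases lie much closer together than genes of 1 complex do.

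Per exon length, the levels of subunits of 1 complex differed far more than those of 1 gene between phases. Mean levels ran from 4.37 (Ndufb7) to 304 CPM per kb (Ndufa4) in complex I, a 69.6-fold range, and from 15.7 (Atp5g1) to 719.8 CPM per kb (Atp5b, the catalytic beta subunit) in complex V, a 46.0-fold range. Complexes II, III and IV spanned 5.97-fold, 8.62-fold and 7.45-fold. Median levels were 41.6 CPM per kb for measured genes of complex I, 64.4 for II, 48.2 for III, 69.1 for IV and 71.0 for V. Exon length counts every annotated exon of a gene, so a gene with long rarely used exons is given a level that is too low.

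The 15 genes not measured fall into 3 kinds. The first are forms of complex IV subunits used in other tissues or in muscle fibres, and the hypoxia-linked Ndufa4l2: Cox4i2, Cox6a2, Cox7b2, Cox8b, Cox8c and Ndufa4l2 had 0 fragments in all libraries, and Cox6b2 had 1, in G2/M. Cox7a1, the heart and muscle form of subunit 7a, had 18 fragments in S (0.502 CPM) and 0 in G1 and G2/M. With G1 set to the floor of 3 fragments, this is 5.37-fold higher in S than G1, and the counting interval of the log2 ratio begins at 1.98. A count of 0 allows up to 0.0936, 0.0837 and 0.0827 CPM in the G1, S and G2/M libraries. The forms found in most tissues were all measured: Cox4i1 stood at 238, 205 and 248 CPM in G1, S and G2/M, Cox6a1 at 80.8, 39.2 and 57.5 CPM, Cox6b1 at 110.4, 57.9 and 87.6 CPM and Cox7a2 at 54.2, 40.9 and 24.7 CPM. The second kind are near copies of other members, Cox6c2, Ndufa11b, Ndufb4c and Ndufs6b, with 0 to 1 fragment in any library. The third are 3 genes of low level: Ndufb2 (4.59, 3.91 and 6.87 CPM), Ndufv3 (5.99, 4.19 and 7.61 CPM) and Atp5s, with 72, 67 and 0 fragments.

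Between S and G1, 56 of the 73 measured genes were lower in S (76.7%, against 50.4% of 8773 measured genes) and 17 higher (23.3%, against 49.6%). Their median log2 ratio was -0.34, where all genes had -0.01. At least 2-fold lower were 4 genes, Uqcr10, Ndufb5, Cox6a1 and Atp5d, and 0 were at least 2-fold higher. Subtracting the median ratio of genes of like exon length left only Ndufb5 past 2-fold lower (Uqcr10 -0.90, Cox6a1 -0.76, Atp5d -0.83) and put Cox8a at 1.11. Across all measured genes 17.2% passed 2-fold, 8.59% in the lower and 8.64% in the higher direction, against 5.48% of these genes. The background share depends on level, and at a mean over the 3 phases of at least 50 CPM 3 of 50 respiratory chain genes and 85 of 4239 genes were at least 2-fold lower, and 0 and 150 higher. Counting intervals lay wholly below 0 for 52 of the 73 genes (71.2%, against 44.7%) and wholly above 0 for 15 (20.5%, against 43.6%). The difference was thus modest per gene and shared by most. Among the 50 with a mean of at least 50 CPM, 41 were lower in S and the median was -0.35, where 2083 of the 4239 genes (49.1%) were lower and the median was 0.01.

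**Figure D2:**
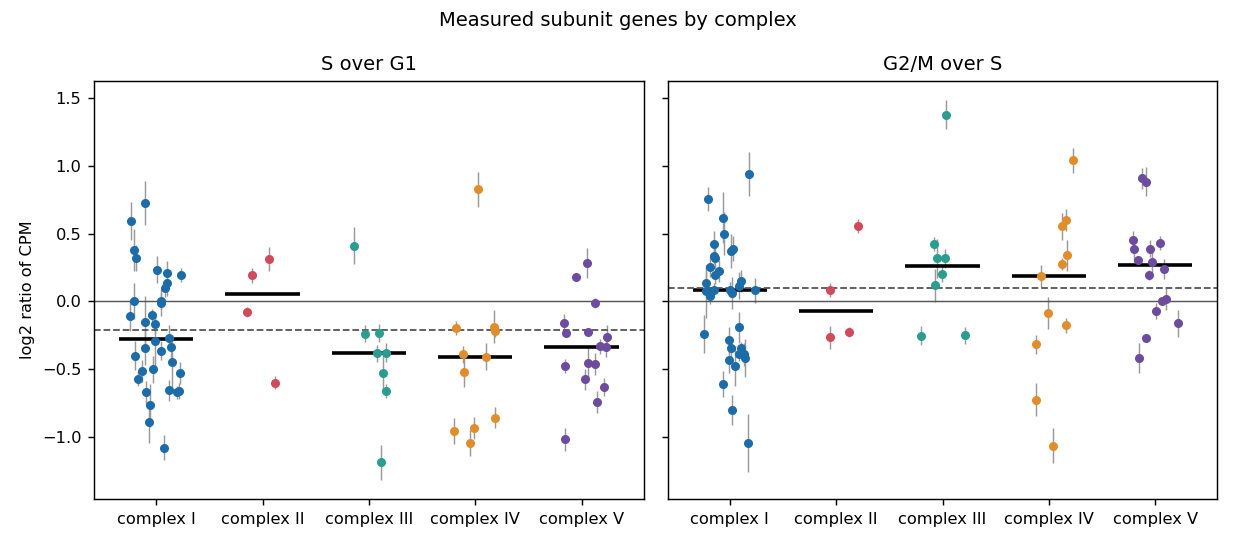
Log2 ratio of CPM of each measured gene by complex, S over G1 (left) and G2/M over S (right). Points are genes with 95% counting intervals, black bars are medians per complex, the solid line is 0 and the dashed line is the median of all measured genes of up to 2693 exon bases (-0.21 and 0.10). Most points lie below 0 on the left except in complex II, and the medians of complexes I, III, IV and V lie above 0 on the right.

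Exon length bears on this comparison, because short genes as a class were lower in S. The median S over G1 log2 ratio of all genes over 10 classes of exon length ran from -0.29 in the shortest (57 to 1701 bases) to 0.31 in the longest (9345 to 41324 bases). Respiratory chain genes are short, with a median of 1465 exon bases against 4261 for all measured genes, and 43 of the 73 were in the shortest class, where they had -0.34. After subtracting from each gene the median of its class, the median of the 73 was -0.09 and 46 of them (63%, against 50%) lay below 0. Leaving cytosolic ribosomal protein genes and the 73 themselves out of those medians gave -0.11. Among the 73, the ratio and exon length had a Spearman correlation of -0.01 and a Pearson correlation of -0.04, against 0.24 and 0.18 over all 8773 genes, across genes that share the same libraries. The 15 respiratory chain genes above 2693 exon bases had a median of -0.20, with 12 lower in S, where all genes above it had 0.06. These 2 sets differ in length, since all genes reach 41324 bases and the longest of the 15 has 8086. After centring, the median of the 15 was -0.09, with 11 below 0. The part of length in the S over G1 difference was not tested beyond these values.

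**Figure D3:**
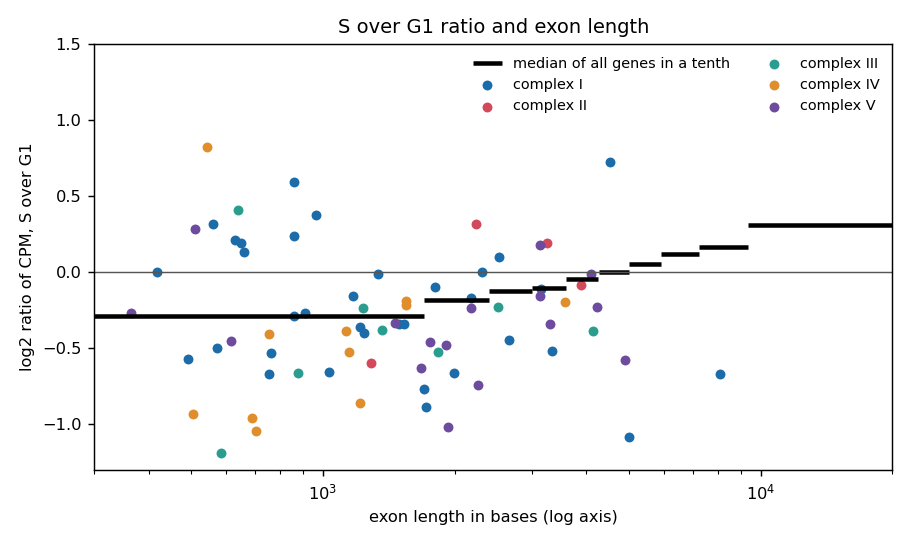
Log2 ratio of CPM, S over G1, against exon length in bases (log axis) for the 73 measured genes, coloured by complex. Black bars are medians of all measured genes in 10 classes of exon length, the end classes cut at the axis. They climb from -0.29 to 0.31, and 46 of the 73 points lie below the bar of their class.

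In complex I, 23 of 34 measured genes were lower in S than in G1. Their median was -0.28, or -0.00 after centring on exon length. The 7 core subunits, which carry the flavin and the iron-sulphur clusters or lie beside the quinone site, were mixed, with 4 lower and 3 higher and a median of -0.17. Ndufs1, the largest subunit (chromosome 1, 63143596 to 63176833), stood at 259.8 and 264 CPM in the G1 columns, 165 and 164 in S and 170.4 and 178 in G2/M, a log2 ratio of -0.67 (interval -0.72 to -0.62) for S over G1. Ndufv2, which holds an iron-sulphur cluster, stood at 169, 106 and 134 CPM in G1, S and G2/M, and Ndufs7, near the quinone site, at 29.0, 15.7 and 22.1 CPM, with ratios of -0.66 and -0.89. Ndufv1, which binds the flavin and NADH, stood at 103, 110.0 and 86.5 CPM, Ndufs3 at 83.2, 74.2 and 88.4 and Ndufs8 at 18.6, 24.2 and 20.5. Core subunits, which sit together in complex I, thus differed in direction between these libraries.

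Among the 27 measured accessory genes of complex I, 19 were lower in S and the median was -0.29. Ndufb5, an accessory subunit of the membrane arm (chromosome 3, 32736990 to 32751566), stood at 91.4 and 86.1 CPM in the G1 columns, 42.4 and 41.6 in S and 46.8 and 44.3 in G2/M. Its S over G1 ratio of -1.08 (interval -1.17 to -0.99) stayed at -1.08 after centring, since its exons span 4995 bases, and 12.3% of them overlap Mrpl47. Ndufa6 stood at 45.3, 56.5 and 42.0 CPM, Ndufs5 at 21.3, 32.1 and 33.5 CPM and Ndufb7 at 15.4, 25.5 and 18.4 CPM, all higher in S than in G1, by log2 ratios of 0.32, 0.59 and 0.72. Ndufa4, named for complex I but later assigned to complex IV, stood at 190.0, 128 and 131 CPM. Moving it to complex IV took that complex's median from -0.41 to -0.47.

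Complex II, the only one with no mitochondrially encoded subunit, had no shared direction. Sdha, the flavoprotein that oxidises succinate, stood at 345, 326 and 279 CPM in G1, S and G2/M, and Sdhb, its iron-sulphur partner, at 56.6, 70.4 and 58.7 CPM. Of the membrane anchors, Sdhc stood at 137, 157 and 166 CPM and Sdhd (chromosome 9, 50596338 to 50603849) at 242, 160.0 and 235 CPM. Sdhd alone was far lower in S, with a log2 ratio of -0.60 (interval -0.65 to -0.55) over G1 and 0.56 for G2/M over S, while Sdhb and Sdhc were higher in S than G1 by 0.32 and 0.19. The median of the 4 was 0.06.

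In complex III, 7 of 8 genes were lower in S than G1. The median was -0.38, and -0.22 after centring. Uqcr10, a small accessory subunit (chromosome 11, 4701973 to 4704342), stood at 45.2 and 46.0 CPM in the G1 columns, 20.1 and 19.9 in S and 25.0 and 24.9 in G2/M. Its S over G1 ratio of -1.19 (interval -1.32 to -1.06), a 2.27-fold difference, was the lowest of the 73. Uqcrfs1, the Rieske iron-sulphur protein, stood at 110.1, 84.6 and 105 CPM, Uqcrc1, a core protein, at 151, 116 and 133 CPM and Uqcrb at 224, 141 and 189.7 CPM. Uqcr11 was the exception, at 22.7, 30.3 and 32.8 CPM. Outside the name rule, Cyc1, the cytochrome c1 of the same complex, stood at 469.9, 322 and 304 CPM.

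In complex IV, 10 of 11 measured genes were lower in S. The median was -0.41, and -0.12 after centring. Cox6a1, an accessory subunit (chromosome 5, 115345642 to 115348981), stood at 81.2 and 80.4 CPM in the G1 columns, 39.2 and 39.1 in S and 60.6 and 54.4 in G2/M, a ratio of -1.05 (interval -1.14 to -0.95). Cox5a, a subunit on the matrix side, stood at 77.2, 39.8 and 82.0 CPM, but 38.7% of its exon bases overlap the gene model Gm26631. Cox6b1, which faces the intermembrane space, and Cox7b had ratios of -0.93 and -0.86. Cox8a (chromosome 19, 7215158 to 7217616) went the other way, at 24.5 and 23.8 CPM in G1, 41.8 and 43.8 in S and 20.4 and 20.5 in G2/M, a ratio of 0.83 (interval 0.70 to 0.95). The 7 complex IV genes that averaged 50 CPM or more over S and G1, without Cox8a, Cox5b, Cox7a2 and Cox7a2l, had a median of -0.86. That minimum draws on the same S and G1 levels as the ratios, and Cox5a and Cox6a1 exceeded 50 CPM in G1 but not in S. The median is the ratio of Cox7b, which was -0.57 after centring. Cox7a2l, a supercomplex factor, stood at 50.3, 35.0 and 32.9 CPM.

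In complex V, S was below G1 for 14 of 16 measured genes. The median was -0.33, and -0.18 after centring. In the F1 head, Atp5b (chromosome 10, 128083273 to 128090391) stood at 3372, 2882 and 2895 CPM, while Atp5a1, the alpha subunit that forms the same hexamer, was higher in S at 804, 909.8 and 754 CPM, so the ratios of these partners were -0.23 and 0.18. Atp5c1, the central stalk, stood at 209, 150.2 and 202 CPM. Atp5d, at the foot of that stalk, stood at 93.2 and 94.7 CPM in the G1 columns, 46.5 and 46.4 in S and 61.5 and 59.9 in G2/M, a ratio of -1.02 (interval -1.10 to -0.93). The 3 genes of the c ring, which encode one mature protein with different import signals, were all lower in S: Atp5g1 at 98.1, 65.9 and 66.7 CPM, Atp5g2 at 128, 82.9 and 113 CPM and Atp5g3 at 619, 526 and 648 CPM. The 4 genes of the peripheral stalk ran from -0.01 for Atp5f1, whose interval of -0.05 to 0.03 includes 0, to -0.74 for Atp5o, although 44.0% of the exon bases of Atp5o overlap other genes.

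Between G2/M and S, 47 of 73 genes were higher in G2/M (64.4%, against 50.5% of 8752 measured genes) and 26 lower (35.6%, against 49.5%), with a median of 0.12 against 0.01 for all genes. Past 2-fold, 2 were higher (background 7.12%) and 2 lower (background 6.6%), 5.48% in all against 13.7% of measured genes. That background depends on level. At a mean over the 3 phases of at least 50 CPM, 1 of 50 respiratory chain genes and 36 of 4239 genes were at least 2-fold higher, and 0 and 63 lower. Medians were 0.08 for complex I, -0.07 for II, 0.26 for III, 0.19 for IV and 0.27 for V. After centring on exon length, 42 of 73 were higher (57.5%, against 50%), the median of all was 0.08, and complex I stood at -0.0094 with 17 higher and 17 lower. The highest was Uqcrq (chromosome 11, 53427922 to 53430831), an accessory subunit of complex III, at 39.1 and 37.9 CPM in the G1 columns, 26.2 and 27.3 in S and 69.6 and 69.2 in G2/M, a ratio of 1.38 (interval 1.27 to 1.49). Cox5a was 2.06-fold higher in G2/M, followed by Ndufa3, an accessory subunit of complex I, with a ratio of 0.94, and by Atp5o at 96.4, 57.8 and 108 CPM. Cox8a and Ndufa7 were the 2 lower genes, by 2.09-fold and 2.06-fold.

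Between G2/M and G1, 50 of 73 genes were lower in G2/M (68.5%, against 50.2% of 8850 measured genes) and 23 higher (31.5%, against 49.8%), with a median of -0.18, or -0.05 after centring. Counting intervals lay wholly below 0 for 47 (64.4%, against 44.8%). At least 2-fold lower were 3 genes (4.11%, against 9.81%), and 0 were higher, where 19.8% of measured genes passed 2-fold in either direction. At a mean over the 3 phases of at least 50 CPM, 0 of 50 respiratory chain genes and 109 of 4239 genes were at least 2-fold lower, and 0 and 164 higher. Ndufa7, an accessory subunit of complex I (chromosome 17, 33824591 to 33838316), stood at 26.3 and 25.6 CPM in the G1 columns, 15.4 and 15.1 in S and 7.40 and 7.44 in G2/M, a ratio of -1.81 (interval -2.01 to -1.61). Cox7a2 was 2.19-fold lower, and Ndufb11, on X at 20615326 to 20617619, was also below its G1 level, at 59.2, 49.2 and 28.2 CPM, a ratio of -1.07. After centring, Cox7a2 stood at -0.98 and Ndufb11 at -0.92, and 12.9% of the exon bases of Ndufb11 overlap Rbm10. The highest ratio was that of Uqcrq, 0.85, followed by Ndufa12 with 0.75, at 47.6, 47.3 and 79.8 CPM. Complexes I, III, IV and V had medians of -0.22, -0.21, -0.37 and -0.12, and complex II one of 0.00.

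**Figure D4:**
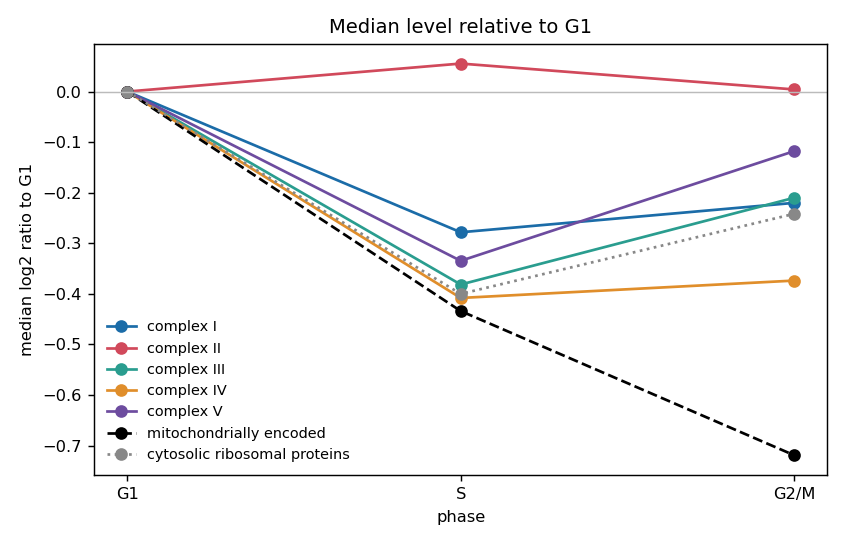
Median log2 ratio to G1 over the measured genes of each complex, of the mitochondrially encoded subunits (dashed) and of the cytosolic ribosomal proteins (dotted), in G1, S and G2/M. Complexes I, III, IV and V lie between -0.28 and -0.41 in S and between -0.12 and -0.37 in G2/M, complex II stays near 0, and the mitochondrially encoded subunits reach -0.72 in G2/M.

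Genes of the same pathway outside the name rule were read from lists. The 8 measured mitochondrially encoded subunits of 13 had a median of -0.43 in S over G1, with 7 of 8 lower and mt-Co2 higher. For all 8 the G2/M level lay below that in S, with a median of -0.32. Their summed share of fragments was 1.77%, 1.34% and 1.07% in the G1, S and G2/M libraries, as in mt-Co1 at 7264, 5463 and 4071 CPM and mt-Cytb at 3655, 2645 and 2218 CPM. mt-Co2, mt-Atp6 and mt-Co3 had 71 to 540 fragments in a library, where mt-Co1 had 147651 to 232901; mitochondrial genes have nuclear copies, so single values of this list are uncertain. The difference between nuclear and mitochondrial genes in G2/M over S was not tested, since each rests on the same 2 libraries.

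Ndufab1, the acyl carrier protein that is also a subunit of complex I, stood at 108, 47.1 and 72.2 CPM in G1, S and G2/M, and Cycs, cytochrome c, at 118, 115 and 93.2 CPM. Assembly factors had no such direction in S over G1, with a median of 0.01 over 11 measured genes for complex I and 0.10 over 22 for the others. The 11 measured coenzyme Q genes of 13 had a median of -0.83 with 9 lower, 4 of them at least 2-fold. Those 4, Coq4, Coq10a, Coq6 and Pdss2, reached 10 CPM in G1 only, with 0.14, 5.36, 2.85 and 5.33 CPM in S. Every other measured gene of this list reached it in both libraries. The level minimum thus draws on the same G1 levels as the ratios, so this median may be too low. Mitochondrial ribosomal proteins had a median of -0.21 with 39 of 68 lower, which centring took to 0.03, and cytosolic ribosomal proteins one of -0.40 with 82 of 83 lower, which centring took to -0.23. On S over G1, the respiratory chain genes thus lay between these lists, both before and after centring.

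Of the 24 genes of known regulators 16 were measured in S or G1, with a median of 0.06. Nrf1 stood at 32.2, 66.2 and 56.8 CPM in G1, S and G2/M, Gabpa at 90.1, 135 and 169 CPM and Yy1 at 96.5, 113 and 103 CPM, each lowest in G1. Esrra stood at 38.3, 38.7 and 32.3 CPM and Tfam, which packages mitochondrial DNA, at 109.7, 114 and 86.6 CPM. The coactivator Ppargc1a, known from muscle fibres, had 2, 0 and 0 fragments, and Ppargc1b had 102, 121 and 10. Respiratory chain genes with an NRF1 motif had a median S over G1 ratio of -0.38 (17 genes) and those without one -0.34 (43 genes). Those with a GABPA motif had a median of -0.16, with 9 of 16 lower, and those without one -0.39, with 38 of 44 lower; this split was not tested.

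Of the 73 genes, 17 (23.3%) have a neighbour on the opposite strand whose start lies within 1000 bases, against 12.7% of all measured genes. Ndufs1 and the elongation factor gene Eef1b2 start 8 bases apart, Ndufa7 and the ribosomal protein gene Rps28 29, Sdha and Ccdc127 29, and Sdhd and the import factor gene Timm8b 52. Atp5j starts 700 bases from Gabpa, and Ndufb5 615 bases from Mrpl47. Exons of 23 of the 88 genes overlap another gene, in 9 of them over more than 10% of their bases, and the counting is not stated to use strand, so fragments of such pairs cannot be told apart.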

How the data were processed

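RNA-seq fragments per gene are counts as deposited, made by the authors with featureCounts 1.5.0-p3 over the exons of Ensembl's GRCm38 gene models, per the file headers. These name no option for strand or multiply mapping reads. HISAT2 2.1.0, SAMtools 1.6 and R 4.0.1 are named per the submitters' processing notes. Identifiers matched a symbol for 45143 of 46078 genes. Exon length is that of the table.

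Columns were summed per phase (32395232 fragments for G1, 35822319 for S, 35907974 for G2/M) and scaled by TMM (edgeR 4.0.16, R 4.3.3), which gave factors of 0.990, 1.00 and 1.01. A log2 ratio sets counts under 3 to 3, with exact (Clopper-Pearson) 95% binomial intervals. Genes were named by a rule: the extremes of each complex at a mean of 50 CPM, isoform families, core subunits, regulators and every gene past 2-fold. The genes and lists were chosen with earlier results of these data known. Other genes named, such as Ndufs5, Ndufb7, Ndufa3, Uqcr11 and Ndufb2, were chosen after their values were seen. The ratio and interval steps were tested on simulated data. Alternatives were other scalings (DESeq2 1.42.0 size factors, library size alone), other level minimums, centring on the median of genes in the same of 10 classes of exon length, and leaving out each column. Protein sequences were not used here.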

Additional observations from a re-analysis of the deposited data

How the results depend on the processing

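No paired analysis was possible because the columns of a phase were summed to 1 library and no test was made. With DESeq2 size factors or library size alone, no count or median over the respiratory chain genes changed direction or moved beyond its limits. At a mean of at least 50 CPM over the 2 libraries compared, a set that differs from that of the 3-phase mean, 9 of 49 genes were higher in S than G1 and the median of 7 complex IV genes was -0.86. Such a minimum draws on the same levels as the ratios. For G2/M over S, 13 of 45 were lower, 0 at least 2-fold lower and 1 at least 2-fold higher, and for G2/M over G1, 13 of 50 were higher and 0 at least 2-fold lower. Shares over all genes are given only at the 3-phase mean, over 4239 genes. There 50.9% were higher in S than G1, 51.3% lower in G2/M than S and 49.6% higher in G2/M than G1. At least 2-fold, 63 were lower and 36 higher in G2/M than S, and 109 were lower in G2/M than G1. The 2-fold counts of 0 and 1 lie near such shares. With no minimum, 1 gene was at least 2-fold higher in S than G1 and 4 at least 2-fold lower in G2/M than S, and the complex IV median for G2/M over S turned from 0.19 to -0.0174. Having no minimum admits genes with few fragments, and no share over all genes is given beside these counts.

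Centring on exon length took the S over G1 median to -0.0911, with 27 genes higher, 1 at least 2-fold lower (Ndufb5) and 1 higher (Cox8a), and medians of -0.0038, 0.13, -0.22, -0.12 and -0.18 for complexes I to V. For G2/M over S it left 1 gene at least 2-fold higher and a complex IV median of 0.0819. For G2/M over G1 it gave a median of -0.0453, 1 gene at least 2-fold lower, and -0.0887, 0.14, -0.12 and -0.0269 for complexes I, II, III and V. Leaving ribosomal proteins and the respiratory chain genes out of the centring, chosen after seeing the data, gave -0.11 for S over G1, with 1 gene at least 2-fold lower and 1 higher, and -0.0421, 0.12, -0.24, -0.17 and -0.20 for complexes I to V. It left 1 gene at least 2-fold higher for G2/M over S, and gave -0.0627 for G2/M over G1, with -0.11, 0.13, -0.13 and -0.0319 for complexes I, II, III and V. Leaving out 1 column at a time kept the S over G1 median between -0.34 and -0.33, while the complex IV median for G2/M over S ranged from 0.10 to 0.29, the highest without the first S column. Over these genes the columns of a phase differed by no more than counting noise, so these ranges cannot show how stable the medians are between cultures.

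Counting intervals do not measure differences between cultures, and ratios spread more widely at low levels.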
